A study of Homo sapiens with 6 samples.

Results

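The chemokines and inflammatory cytokines of MDA-MB-231 cells are described here by the mRNA levels of 10 genes. They were taken by symbol from the table of 46427 genes: CXCL1, CXCL2, CXCL3, CXCL8, IL6, IL11, LIF, IL1A, IL1B and CSF2. All 10 were listed and all 10 had enough reads to be among the 16966 genes tested. MDA-MB-231 is a metastatic human breast cancer cell line, labelled as wild type in its genotype and grown in low glucose medium with serum. Cells received control-siRNA (3 libraries) or TAZ-siRNA (3 libraries), a small interfering RNA against WWTR1, which encodes the transcriptional co-activator TAZ, delivered with a lipid transfection reagent. Both groups come from 1 cell line, 1 siRNA reagent was used against TAZ, and the 3 libraries of a group are separate cell preparations. A time of siRNA treatment is given for other assays of the study but not for the sequenced cells. The comparison asks how the mRNAs of secreted inflammatory factors differed when TAZ was knocked down.

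Chemokines of the CXC family are small secreted proteins that attract leukocytes through G protein-coupled receptors, and those among the members attract above all neutrophils. The cytokines IL-6, IL-11 and LIF signal through receptor complexes that share the gp130 subunit, which activates JAK kinases and STAT transcription factors. IL-1α and IL-1β act through the IL-1 receptor and switch on NF-κB, the transcription factor family that drives most of these genes in inflammation. GM-CSF, encoded by CSF2, promotes growth and activation of myeloid cells. Many of these mRNAs are short-lived, because AU-rich stretches in their 3′ untranslated regions recruit decay factors. Several of the factors are known to be made by invasive breast cancer cells without added stimuli.

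The libraries held 48307548 to 71749634 counts. CPM is the count scaled to a common library size, and the floor of 3 counts lay between 0.0412 and 0.0618 CPM, covering counting error only. WWTR1 was at 190 to 192 CPM with control-siRNA and at 15.1 to 17.3 CPM with TAZ-siRNA, a log2 fold change of -3.53 ± 0.06 (SE). The 7 markers chosen for this mesenchymal, basal-like line summed to 6260 to 6490 CPM with control-siRNA and to 5680 to 5920 CPM with TAZ-siRNA. Most of the sum was VIM (3574 and 3400 CPM). Within the list EGFR, AXL and CAV1 fell, SPARC rose, and VIM, CD44 and KRT18 did not pass. The 9 leukocyte markers summed to 74.7 to 82.5 CPM and to 54.7 to 64.7 CPM, nearly all of it CD68, which fell by 0.42 on the log2 scale. PTPRC, CD3E and TYROBP were listed at 0 in all 6 libraries, and CD79A had at most 10 counts in any library. With control-siRNA and TAZ-siRNA, CSF1R was at 1.155 and 1.313 CPM, CD14 at 0.532 and 0.788, LYZ at 0.532 and 0.844 and ITGAX at 0.321 and 0.365. None of these passed, though all TAZ-siRNA libraries lay above all controls for CD14 and LYZ. The 5 endothelial markers summed to 6.46 to 7.29 and 6.73 to 9.51 CPM. The 7 luminal epithelial markers summed to 59.2 to 64.0 and 58.9 to 74.8 CPM, mostly ERBB2 (46.7 and 55.2 CPM). Within the TAZ-siRNA group, replicate 3 stood apart from the other libraries on the second principal component (18.2% of the variance). The members and the counts of genes that passed are therefore also given without it, whereas single pathway genes are given only with it.

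The sequences upstream of the start sites show which binding motifs the members carry in common. RefSeq promoter windows (GRCh38.p14, 250 bases before to 50 bases after the start) matched 9 of the 10 members, and none was used for LIF. A match to the 10-letter NF-κB consensus on either strand was found in CXCL1, CXCL2, CXCL3 and IL6, and in 10.8% of all 27305 promoters. For this and the motifs below only exact matches were counted. A site that departs from the pattern would be missed, so a promoter without a match, such as that of CXCL8, may still hold one. The 3 neighbouring chemokine genes carried it as the same run of letters. Their upstream sequences were lined up at this match and compared without gaps over 149 or 150 bases. They were 86.0% identical between CXCL1 and CXCL3, 67.1% between CXCL1 and CXCL2 and 65.3% between CXCL2 and CXCL3. The match began at position -79 in CXCL1 and CXCL3 and at -78 in CXCL2. A missing base puts later letters out of step, so the values with CXCL2 may understate its likeness. The sequences are shown here from 100 to 41 bases before each start site, 5′ to 3′ on the gene's strand. Capitals mark the matched letters of both strands.
CXCL1, chr4:73869293-73869352, plus strand: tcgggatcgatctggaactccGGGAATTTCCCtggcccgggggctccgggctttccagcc
CXCL2, chr4:74099236-74099295, minus strand: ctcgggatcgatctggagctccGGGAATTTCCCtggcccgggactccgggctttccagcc
CXCL3, chr4:74038730-74038789, minus strand: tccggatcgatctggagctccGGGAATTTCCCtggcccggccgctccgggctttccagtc

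Of the 6 promoters with a match to another motif, the next set shows the 3 whose match lay from 160 to 61 bases before the start. An AP-1 motif (TGANTCA, the same site on both strands) was found in CXCL8, IL11 and IL1A, and in 7.76% of all promoters. A C/EBP motif (TTGCNNAA, either strand) was found in CXCL2, IL6 and IL1B, and in 10.6% of all promoters. The TEAD motif GGAATG, the letters bound by the DNA-binding partners of TAZ, was found in 0 of 9 members on either strand. It was found in 14.0% of all promoters and in 11.2% of those of tested genes. With 9 promoters, 0 cannot be told apart from these shares, and sequence outside the window was not searched. In the sequences below capitals mark the AP-1 match of CXCL8 and IL11, and the C/EBP and NF-κB matches of IL6, in that order.
CXCL8, chr4:73740409-73740508, plus strand: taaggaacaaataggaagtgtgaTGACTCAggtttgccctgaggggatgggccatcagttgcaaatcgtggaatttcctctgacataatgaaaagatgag
IL6, chr7:22727040-22727139, plus strand: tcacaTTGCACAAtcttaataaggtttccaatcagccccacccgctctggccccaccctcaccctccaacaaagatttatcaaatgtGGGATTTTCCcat
IL11, chr19:55370524-55370623, minus strand: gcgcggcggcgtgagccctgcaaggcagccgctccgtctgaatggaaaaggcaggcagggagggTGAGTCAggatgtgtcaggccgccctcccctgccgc

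The members also shared AU-rich elements, counted as ATTTA in the 3′ untranslated region of 1 reference transcript per gene (GENCODE v44). CSF2 had 8 in 318 bases, or 25.2 per kb, and 0.0609% of the tested genes were as dense. CXCL2 had 10 (14.0 per kb), IL6 had 6 (14.1 per kb), CXCL8 had 9 (7.19 per kb) and LIF had 7 spread over 3198 bases (2.19 per kb). The median of 13132 tested genes was 2 copies and 1.71 per kb, so every member lay above the median on both measures. Of the tested genes 41.3% were at least as dense as LIF and 12.6% as IL1A. By number of copies, from 15.2% (CXCL2) to 33.5% (IL1A) of the tested genes had at least as many as a member. These stretches of 30 bases, from the part of each region richest in the motif, show the tandem copies of CSF2 and CXCL2 and the scattered copies of LIF, with ATTTA in capitals. The motif was chosen for description with the expression values known.
CSF2: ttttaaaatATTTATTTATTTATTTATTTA
CXCL2: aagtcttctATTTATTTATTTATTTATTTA
LIF: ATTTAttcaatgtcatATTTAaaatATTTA

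Levels were compared between genes with TPM, which corrects for transcript length. With control-siRNA CXCL8 was by far the most abundant member at 624 ± 34.8 TPM (SD, n = 3), above 98.8% of the tested genes. IL11 followed at 230 ± 3.68 TPM, LIF at 160 ± 3.45 TPM and CSF2 at 76.9 ± 2.69 TPM. CXCL1 (27.6 TPM), CXCL2 (24.3 TPM), CXCL3 (10.4 TPM), IL1A (9.37 TPM), IL6 (9.06 TPM) and IL1B (7.05 TPM) were lower, and IL1B stood above 40.7% of the tested genes. The ranges over libraries overlapped between CXCL3 and IL1A and between IL1A and IL6. Within each control library CXCL3 was above IL1A, whereas IL6 was above IL1A only in control-siRNA replicate 3 (10.3 and 9.95 TPM). Differences between genes were not tested. With TAZ-siRNA LIF (204 ± 7.09 TPM) came before IL11 (193 ± 26.0 TPM), but their ranges overlapped, as did those of CXCL1 (36.8 TPM) and CXCL2 (27.0 TPM) and those of IL6 (6.59 TPM) and IL1B (6.25 TPM).

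**Figure D1:**
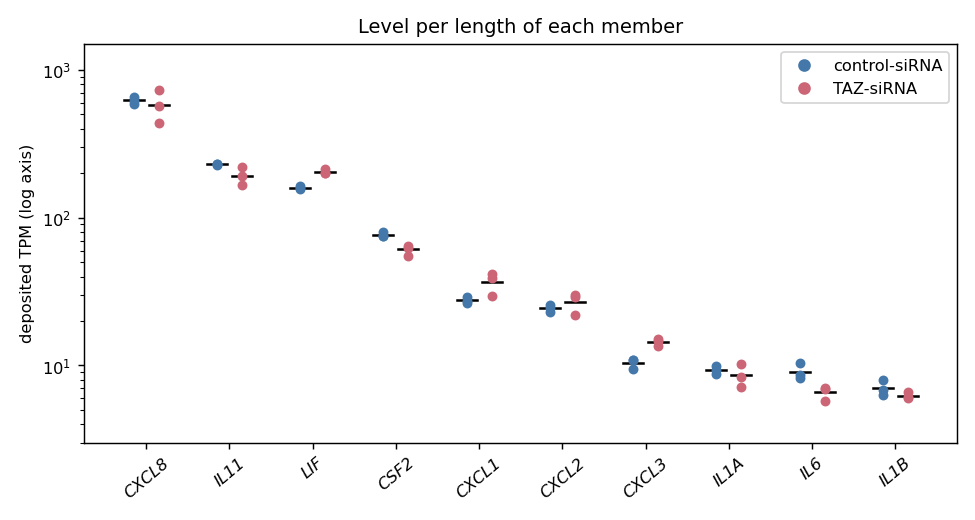
Deposited TPM (log axis) of the 10 members in each library, with control-siRNA and TAZ-siRNA side by side and a black bar at each group's mean. CXCL8, IL11, LIF and CSF2 lie above the other 6 members in both groups, and the CXCL8 mean is 624 TPM with control-siRNA and 581 TPM with TAZ-siRNA.

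Of the 10 members, 3 rose with TAZ-siRNA (CXCL1, CXCL3 and LIF), 2 fell (IL6 and CSF2) and 5 did not pass the test. A gene passed when its p in the quasi-likelihood test of edgeR, adjusted after Benjamini and Hochberg across the whole table, was under 0.05. In RNA of whole cultures, fewer cells making an mRNA and less mRNA per cell cannot be told apart. Among all 16966 genes tested 22.1% passed, 11.9% as higher and 10.2% as lower, against which the members' 5 of 10 is a small count. The median log2 fold change was -0.16 over the members and -0.01 over all genes tested. For 6 of the 10 members all TAZ-siRNA libraries lay on 1 side of all controls, compared with 39.6% of all genes tested. With 1 library left out 2 to 7 members and 1937 to 5928 of all genes passed: 7 members and 5928 genes without TAZ-siRNA replicate 3, and 2 or 3 members without any other library. The changes were modest, between 0.30 and 0.46 on the log2 scale for those that passed. The exact permutation test of 3 libraries against 3 cannot go below a p of 0.1 for any single gene.

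**Figure D2:**
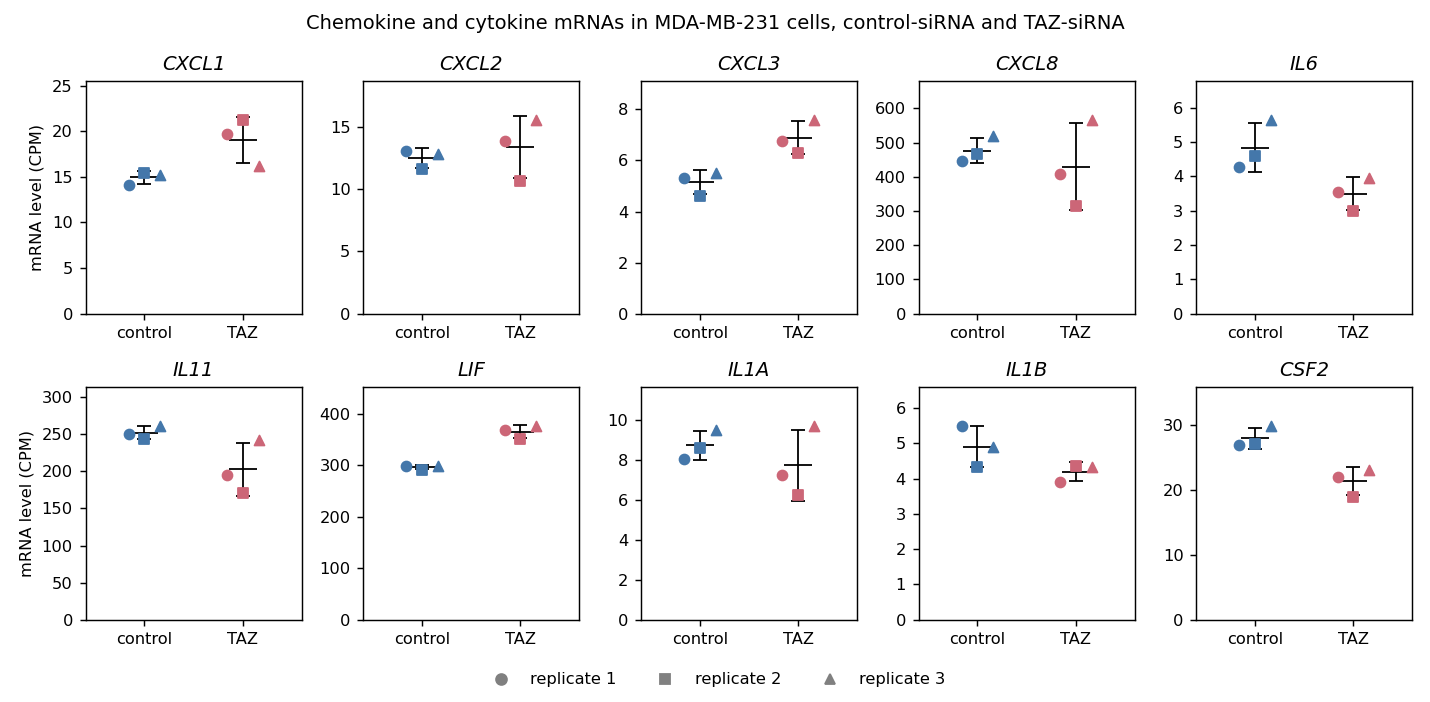
mRNA level (CPM, axes from 0) of each member in the 3 control-siRNA and 3 TAZ-siRNA libraries, with the marker shape giving the replicate and the bar the mean ± SD. LIF and CXCL3 lie higher and CSF2 and IL6 lower in all TAZ-siRNA libraries, while CXCL8, CXCL2, IL1A and IL1B overlap between the groups.

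Among the ligands of neutrophil receptors, CXCL1 and CXCL3 rose, whereas CXCL2 and CXCL8 did not pass the test. CXCL1 (gene 2919, chr4:73869393-73871308) encodes GROα. It was measured at 14.1, 15.5 and 15.2 CPM with control-siRNA and at 19.7, 21.3 and 16.2 CPM with TAZ-siRNA. All TAZ-siRNA libraries were above the controls, replicate 3 by the least. The log2 fold change was 0.35 ± 0.10 (SE; edgeR adjusted p = 0.025), and with single libraries omitted CXCL1 passed in 1 of 6 fits, the one without TAZ-siRNA replicate 3 (0.46, adjusted p = 0.00021).

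CXCL3 (gene 2921, chr4:74036589-74038689) encodes GROγ, a close relative of CXCL1 with the same receptor. Its level was 5.32, 4.61 and 5.52 CPM with control-siRNA and 6.78, 6.31 and 7.59 CPM with TAZ-siRNA. The groups did not overlap, with a log2 fold change of 0.42 ± 0.11 (edgeR adjusted p = 0.022), the largest rise among the members. With single libraries omitted it passed in 3 of 6 fits and missed the threshold without control-siRNA replicate 1 or 2 or TAZ-siRNA replicate 1 (adjusted p 0.058 to 0.099).

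CXCL2 (gene 2920, chr4:74097040-74099195), which encodes GROβ, shares the NF-κB match of the other two genes but did not pass. It was at 13.1, 11.6 and 12.9 CPM with control-siRNA and at 13.9, 10.7 and 15.6 CPM with TAZ-siRNA. The TAZ-siRNA libraries spread to both sides of the controls, and the log2 fold change of 0.10 had a 95% interval from -0.17 to 0.37 (edgeR adjusted p = 0.61). Whether CXCL2 differed from CXCL1 and CXCL3 in its response was not tested. The transcripts of these 3 genes shared no window of 100 bases, the length of the reads before trimming. CXCL1 and CXCL2 shared 60 and CXCL2 and CXCL3 54 windows of 50 bases. Only reads shortened by trimming could therefore match another of these transcripts without a mismatch.

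CXCL8 (gene 3576, chr4:73740569-73743716) encodes interleukin-8, the most abundant member. It was at 445, 467 and 518 CPM with control-siRNA and at 408, 315 and 567 CPM with TAZ-siRNA. The highest and the lowest library of all 6 were both TAZ-siRNA libraries, 1.8-fold apart, whereas the controls spanned 1.16-fold. CXCL8 had a log2 fold change of -0.15 with an interval from -0.67 to 0.37 (edgeR adjusted p = 0.67), wide enough to hold the rise of LIF or the fall of CSF2. Without TAZ-siRNA replicate 2 the value was 0.04 and without TAZ-siRNA replicate 3 it was -0.40, and neither passed.

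These 4 chemokine genes lie within 359 kb on chromosome 4. Of the 14 genes listed in that interval 6 were tested, and apart from the members these were PF4 and LOC105377275, neither of which passed. CXCL6, PPBP and PF4V1, 3 further CXC chemokines of the interval, were listed at 0 in all libraries, and CXCL5 had 6 counts in 1 TAZ-siRNA library and none elsewhere. The neighbours in this cluster therefore ranged from 476.8 CPM for CXCL8 with control-siRNA to no count.

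Of the 3 genes of the IL-6 family LIF rose, IL6 fell and IL11 did not pass the test. LIF (gene 3976, chr22:30240453-30257487), leukemia inhibitory factor, was at 299, 291 and 299 CPM with control-siRNA and at 369, 351 and 376 CPM with TAZ-siRNA. The groups were well separated and tight in each. Its log2 fold change was 0.30 ± 0.05 with an interval from 0.19 to 0.42 (edgeR adjusted p = 0.0029), and LIF passed whichever of the 6 libraries was omitted (0.29 to 0.33).

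IL6 (gene 3569, chr7:22725889-22732002), interleukin-6, was at a far lower level. It was measured at 4.26, 4.60 and 5.64 CPM with control-siRNA and at 3.54, 3.00 and 3.94 CPM with TAZ-siRNA, from 148 to 286 counts per library. No TAZ-siRNA library reached a control. The log2 fold change of -0.46 ± 0.14 was the largest fall among the members but lay close to the threshold (edgeR adjusted p = 0.043), and with single libraries omitted it passed in 1 of 6 fits, the one without TAZ-siRNA replicate 3 (adjusted p = 0.010). The antisense gene IL6-AS1, which overlaps IL6, held 3 to 19 counts per library.

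IL11 (gene 3589, chr19:55364382-55370463), interleukin-11, was at 250, 244 and 261 CPM with control-siRNA and at 196, 171 and 242 CPM with TAZ-siRNA. The groups did not overlap, though TAZ-siRNA replicate 3 nearly reached the lowest control. The log2 fold change of -0.31 ± 0.11 missed the threshold (edgeR adjusted p = 0.067), and passed with DESeq2 (-0.31, adjusted p = 0.010) and without TAZ-siRNA replicate 3 (-0.45, adjusted p = 3.56e-05). IL11 therefore stood at 80.6% of its control level, without passing the main test.

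For CSF2 (gene 1437, chr5:132073789-132076170), which encodes GM-CSF, the values were 26.9, 27.0 and 29.8 CPM with control-siRNA and 22.0, 18.9 and 23.1 CPM with TAZ-siRNA. All TAZ-siRNA libraries were below all controls. TAZ-siRNA gave a log2 fold change of -0.39 ± 0.08 with an interval from -0.56 to -0.21 (edgeR adjusted p = 0.0075), which left 76.4% of the control level. CSF2 passed whichever library was omitted (-0.44 to -0.30), as LIF did, and these were the only members that also passed at an adjusted p under 0.01.

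Neither IL-1 gene passed the test. IL1A (gene 3552, chr2:112773925-112784493), whose protein acts from dying cells as an alarm signal, was at 8.07, 8.61 and 9.51 CPM with control-siRNA and at 7.23, 6.25 and 9.70 CPM with TAZ-siRNA. TAZ-siRNA replicate 3 was above every control and the other two were below them. IL1A had a log2 fold change of -0.17 with an interval from -0.50 to 0.15 (edgeR adjusted p = 0.43), and without TAZ-siRNA replicate 3 it was -0.36 and passed (adjusted p = 0.017).

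IL1B (gene 3553, chr2:112829751-112836843) lies 45.3 kb from IL1A and encodes IL-1β, which is released after cleavage by caspase-1. It was at 5.49, 4.32 and 4.90 CPM with control-siRNA and at 3.90, 4.36 and 4.33 CPM with TAZ-siRNA. The lowest control lay below 2 of the TAZ-siRNA libraries. Its log2 fold change was -0.23 with an interval from -0.49 to 0.04 (edgeR adjusted p = 0.21).

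**Figure D3:**
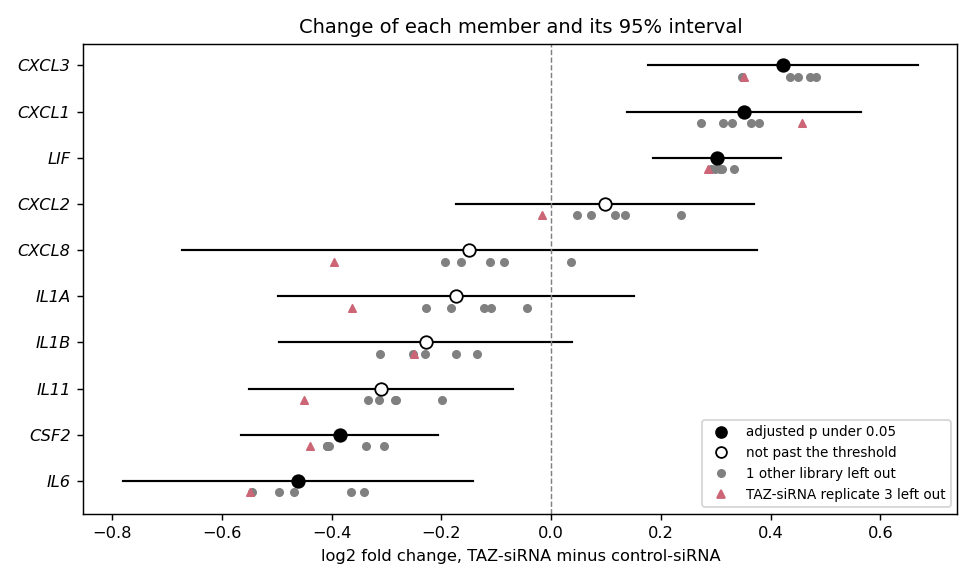
Log2 fold change (TAZ-siRNA minus control-siRNA) of each member with its 95% interval, filled where the adjusted p was under 0.05, and below it the values with 1 library left out. LIF (0.30) has the narrowest interval and CXCL8 (-0.15) the widest, and the triangles without TAZ-siRNA replicate 3 lie furthest from the other small points for CXCL8, IL1A and IL11.

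Within the TAZ-siRNA group the members shared an order of libraries. In 8 of 10 members replicate 2 was lowest and replicate 3 highest, against 21.5% of all genes tested, and the exceptions were CXCL1 and IL1B. The immediate early genes FOS (156, 114 and 206 CPM with TAZ-siRNA) and FOSB (68.8, 45.7 and 84.9 CPM) had the same order, and were picked for this after their values were seen. Not all such genes shared it: EGR1 (648, 675 and 620 CPM with TAZ-siRNA) had the reverse order. Replicate 2 was also the library with the fewest counts, and the part of depth in this order was not tested.

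Most members were read from 1 transcript. In CXCL2, CXCL3 and CSF2 a single transcript was listed, and the leading transcript held 94.7 to 96.7% of the CXCL8 TPM in each library. LIF was the exception. Its leading transcript, XM_024452239, begins upstream of the start of the canonical NM_002309 and held 81.8% of the LIF TPM with control-siRNA and 82.4% with TAZ-siRNA (exact permutation p = 1.0, n = 3). The transcript NM_002309 held 16.5% and 15.7% (exact permutation p = 0.90, n = 3). For IL11 the minor transcript NM_001267718 held 5.38, 4.65 and 3.27% with control-siRNA and 7.72, 6.44 and 7.89% with TAZ-siRNA, ranges that did not overlap. In IL6 the transcript XM_011515390 reached 14.4% in TAZ-siRNA replicate 3 and 0 to 3.72% in the other libraries. These shares are StringTie estimates from overlapping transcripts.

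The genes whose levels moved most like each member over the 6 libraries are given as a description, from 11236 candidates, with the points sharing their 2 groups. LIF moved with MCL1 (Pearson r = 0.9986), an anti-apoptotic BCL2 family gene, and with TRIB1 (0.9982) and SCPEP1 (0.9972). The nearest genes to CXCL8 were LOC105374811 (r = 0.9957), PTGR1 (0.9952) and MARS1 (0.9945). For IL1A they were SQSTM1 (r = 0.9966), OSGIN1 (0.9964) and APTX (0.9964). CSF2 was followed by VSIR (r = 0.9982), USP39 (0.9952) and NCK1 (0.9944), and IL11 by DNAJC25 (0.999), SCNM1 (0.9985) and HSPD1 (0.9969). For CXCL1 they were PAQR8 (r = 0.9971), STON1 (0.9952) and CARMIL1 (0.9932), and for CXCL3 AKAP8L (0.9917), MGAT4B (0.9904) and NEK11 (0.9901). IL6 had YAE1 (r = 0.9973), NECAB3 (0.9969) and COPA (0.9932), CXCL2 had CHP1 (0.9891), HHEX (0.9854) and EIF4G2 (0.9787), and IL1B had DHX16 (0.991), PLA2G4A (0.9806) and UNC119 (0.9802).

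Around the members, 188 genes of their pathways were listed by role and 156 were tested, of which 18 rose and 24 fell, 26.9% in all beside 22.1% of all genes. Receptors came first. Of 11 tested receptor genes LIFR and IL1R1 rose, CSF2RB fell and 8 did not pass, so that 27.3% passed. LIFR, the ligand-binding partner of gp130 for LIF, was at 50.8, 52.7 and 45.8 CPM with control-siRNA and at 73.2, 66.5 and 62.0 CPM with TAZ-siRNA (log2 fold change 0.43 ± 0.07, edgeR adjusted p = 0.0025), and thus rose as its ligand did. IL1R1, the signalling receptor of IL-1, rose from 7.88 to 10.5 CPM. IL6ST, which encodes gp130, was at 324 and 329 CPM, and IL6R at 8.05 and 6.37 CPM (edgeR adjusted p = 0.11). IL11RA, the IL-11 receptor, was at 2.21 and 3.04 CPM with groups that did not overlap (log2 fold change 0.46, edgeR adjusted p = 0.052), and OSMR, the oncostatin M receptor, at 232 and 245 CPM (edgeR adjusted p = 0.28). Of the IL-1 receptor family, IL1RAP, the co-receptor, was at 45.0 and 44.3 CPM, the decoy IL1R2 at 0.176 and 0.182 CPM and the inhibitory SIGIRR at 10.1 and 8.97 CPM, and none of these passed. CSF2RA, the GM-CSF-binding subunit, was at 7.35 and 7.58 CPM (edgeR adjusted p = 0.78). Of the receptors of the CXC members, CXCR1 was listed at 0 in all libraries and CXCR2 had at most 4 counts in any library, and CSF2RB had at most 22 counts in any library.

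Of the 5 NF-κB subunit genes 3 fell. NFKB2, which encodes the p100 precursor, was at 121, 123 and 130 CPM with control-siRNA and at 95.4, 96.9 and 103 CPM with TAZ-siRNA. RELB and NFKB1 fell by 0.32 and 0.20 on the log2 scale. RELA, the main activating subunit, was at 107 and 103 CPM (edgeR adjusted p = 0.46), and REL at 33.9 and 36.2 CPM (edgeR adjusted p = 0.50). Among 24 kinases and adaptors IRAK2, RIPK1 and CARD10 rose, by 0.21 to 0.26, TRAF2 fell by 0.25 and 20 did not pass. Thus 16.7% of this list passed, below the 22.1% of all genes tested.

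Of 13 inhibitor and feedback genes, several of them NF-κB targets themselves, 3 fell and none rose. The 23.1% that passed was near the 22.1% of all genes tested. BIRC3, which encodes the ubiquitin ligase cIAP2, was at 23.9, 20.5 and 19.6 CPM with control-siRNA and at 11.3, 10.7 and 9.53 CPM with TAZ-siRNA, 49.1% of the control level (log2 fold change -1.03 ± 0.09, edgeR adjusted p = 0.00011). TRAF1 fell by 0.48 and TNFAIP3, the deubiquitinase A20, by 0.34. NFKBIA, the inhibitor IκBα, was at 127 and 118 CPM (edgeR adjusted p = 0.29).

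Among 19 other NF-κB target genes 5 fell and 2 rose, 36.8% in all beside 22.1% of all genes tested. ICAM1, an adhesion molecule for leukocytes, was at 97.9, 94.4 and 110 CPM with control-siRNA and at 78.9, 77.8 and 79.9 CPM with TAZ-siRNA. PTX3, a secreted pattern recognition protein, fell by 0.49 and BCL2L1, an anti-apoptotic gene, by 0.24, whereas PTGES, a prostaglandin E synthase, rose by 0.46 and TNFAIP8 by 0.23. The remaining 2 genes that fell were under 1 CPM and outside the rule for naming. SAA1 had 41, 27 and 28 counts with control-siRNA and 0 in every TAZ-siRNA library, at least 8.9-fold lower against the floor of 3 counts per library. Its near-identical copy SAA2 had 8, 0 and 0 counts with control-siRNA and 3 in each TAZ-siRNA library. How reads were divided between these copies was not tested, which leaves the size of the fall uncertain. VCAM1 had 23, 13 and 14 counts with control-siRNA and 0, 2 and 0 with TAZ-siRNA. Over the 4 NF-κB lists together 5 of 61 tested genes rose and 12 fell, 27.9% in all.

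Of the other cytokines 19 of 32 were tested, and 6 fell while 0 rose, 31.6% beside 22.1% of all genes tested. Among them TNFSF18, a ligand of the TNF superfamily, fell from 8.92 to 2.35 CPM, and TNFSF15, another, from 21.5 to 8.90 CPM. TNFSF18 was at 2.40, 1.01 and 3.64 CPM in the TAZ-siRNA libraries, again lowest in replicate 2 and highest in replicate 3. IL32 fell from 3.72 to 1.66 CPM, and the others that fell were IL12A, IL18 and CTF1, the last a ligand of gp130 as LIF is. Of 9 other chemokine genes tested only CCL20 passed, 11.1% beside 22.1% of all genes tested. CCL20 was at 1.58 CPM with control-siRNA and 1.08 CPM with TAZ-siRNA (edgeR adjusted p = 0.048).

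Downstream of gp130, 2 of 14 genes rose (SOCS1, which was under 1 CPM, and PIAS3) and 2 fell (JAK1 and SOCS2). Together they were 28.6% of the list, beside 22.1% of all genes tested. STAT3, the main transcription factor of this pathway, was at 164 and 171 CPM (edgeR adjusted p = 0.50), and SOCS3, its feedback inhibitor, at 36.3 and 32.5 CPM (edgeR adjusted p = 0.18). Among 12 genes tested for processing and release of IL-1, NLRP1, an inflammasome sensor, fell by 0.54 and CAPNS1, the small calpain subunit, by 0.19, while CAPN2, a calpain, rose by 0.28. CASP1, which encodes caspase-1, was at 1.36 and 1.71 CPM, and PYCARD, the inflammasome adaptor ASC, was listed at 0 in all 6 libraries.

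Of 16 genes for AU-rich element binding and cytokine mRNA decay 3 rose and 0 fell. The 18.8% that passed lay below the 22.1% of all genes tested. ZC3H12A, the nuclease regnase-1, which cleaves IL6 mRNA, rose from 12.3 to 15.3 CPM (log2 fold change 0.33, edgeR adjusted p = 0.033), and ZC3H12C and TIA1 rose by 0.25 and 0.32. ZFP36, which encodes tristetraprolin, the decay factor that binds ATTTA repeats, was at 63.3 and 82.1 CPM with groups that overlapped (edgeR adjusted p = 0.23). ELAVL1, the stabilising factor HuR, was at 130 and 133 CPM.

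The factors that join NF-κB at cytokine promoters were the list with the highest median, 0.29. Of its 14 genes 5 rose while 0 fell, 35.7% beside 22.1% of all genes tested. EGR1 was at 388, 372 and 375 CPM with control-siRNA and at 648, 675 and 620 CPM with TAZ-siRNA (log2 fold change 0.78 ± 0.06, edgeR adjusted p = 6.11e-05). The AP-1 genes JUND and JUNB rose by 0.75 and 0.57, CEBPB, which encodes the C/EBP factor of the IL6 promoter, by 0.49 and SRF by 0.24.

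**Figure D4:**
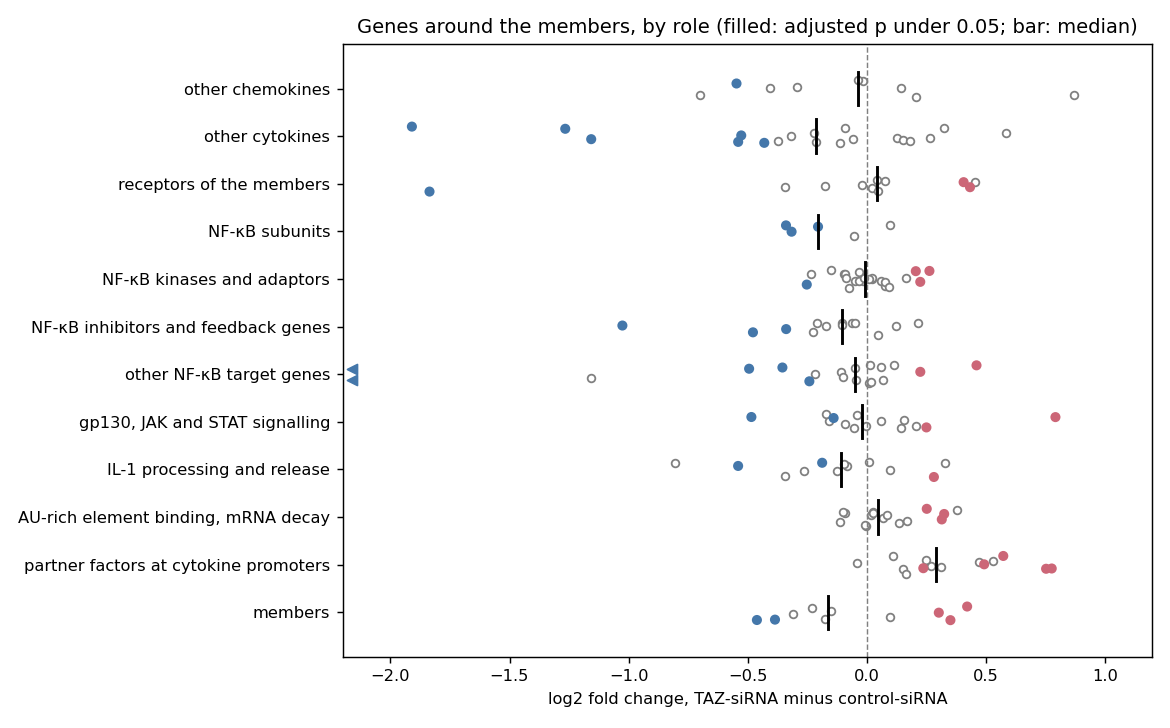
Log2 fold change (TAZ-siRNA minus control-siRNA) of each tested gene in the pathway lists and of the members, filled where the adjusted p was under 0.05 (red higher, blue lower), with a bar at each list's median and triangles for VCAM1 and SAA1, which lie beyond the axis. The list of partner factors has the highest median (0.29), and in the lists of NF-κB subunits and inhibitors every filled point lies below 0.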

How the data were processed

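RNA of 3 control-siRNA and 3 TAZ-siRNA preparations of MDA-MB-231 cells was sequenced with a stranded mRNA kit. After trimming, the authors aligned reads to GRCh38 (HISAT2) and estimated the abundance of annotated transcripts and genes (StringTie). Whether counting used the strand is not given in the sources used here. The submitters' processing notes also list Bowtie 0.12.2 and the build mm8, with no role. The deposited estimated counts were whole numbers. FPKM values, deposited by the authors, were scaled for length and library size, and the deposited TPM values for length and to a common total. Replicates were numbered as in the column names, since the titles number them differently.

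The counts were tested with edgeR 4.0.16 (R 4.3.3; TMM, filterByExpr with a minimum count of 10, robust quasi-likelihood test, Benjamini-Hochberg over 16966 genes, adjusted p under 0.05). The biological coefficient of variation was 8.04%. Alternatives were DESeq2 1.42.0, upper-quartile factors, other filters, a replicate block, limma 3.58.1 after adding 1 or 0.1 to FPKM before log2, an adjusted p under 0.01 and leaving out each library. Scripts were tested on simulated data. The members and lists were chosen with earlier results of these data known. Named genes were the members, all tested receptors and NF-κB subunits, in each list up to 3 genes per direction that passed, averaged 1 CPM or more and had no overlap between groups, and the 3 genes most correlated with each member (mean of at least 5 CPM). Other genes were named for their function or after their values were seen. p-values measure the spread between these preparations.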

Additional observations from a re-analysis of the deposited data

How the results depend on the processing

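The count of members that passed was 5, and 2 at an adjusted p under 0.01, where 1720 of all genes and 24 of the 156 pathway genes passed in place of 3749 and 42. Leaving out 1 library gave 2 to 7 members, 1937 to 5928 genes and 24 to 63 pathway genes. Without TAZ-siRNA replicate 3 the counts were 7, 5928 and 63, and without any other library they were lower than in the full set. LIF and CSF2 passed in each of these 6 fits. With 1 library left out the log2 fold change of CXCL2 ranged from -0.016 (without TAZ-siRNA replicate 3) to 0.237 (without TAZ-siRNA replicate 2) and that of CXCL8 from -0.395 (without TAZ-siRNA replicate 3) to 0.0356 (without TAZ-siRNA replicate 2), so both changed sign, and neither passed in any setting. The cause was not tested. CXCL1 missed the threshold with limma (adjusted p 0.059 and 0.055). The replicate block gave 6 members with IL11 added (adjusted p = 0.0098), 5122 genes and 54 pathway genes, but the numbers did not pair the samples: deviations of same-numbered libraries correlated at -0.02, 0.01 and 0.07, and not every library correlated best with its own number. For the 10 members, 66 of 70 log2 fold changes under other tests, scalings, filters and the block kept their direction and side of the threshold, and the 4 others were those of CXCL1 with limma and of IL11 with DESeq2 and the block.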
